A study of Mus musculus with 6 samples.

Results

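The transcripts of 10 epithelial cytokine and chemokine genes were followed in dental epithelial organoids (DEOs), out of 47360 gene symbols in the expression table. The genes were taken by name as a family: Il1a, Il1b, Il1rn, Il18 and Il33 of the IL-1 family, the cytokine gene Tslp, and the chemokine genes Cxcl1, Cxcl2, Cxcl5 and Ccl20. DEOs were grown for 14 days in Matrigel from adult dental epithelial stem cells (aDESCs), primary cells obtained by digesting the epithelium of the apical incisor buds of 9-week-old female C57BL/6J mice of wild-type genotype. All media held N-acetylcysteine, Y27632, Wnt3a- and R-spondin1-conditioned media, EGF (100 µg per ml) and Noggin (200 µg per ml), a mixture named +N. To this, +ND added dibenzazepine (DBZ), +NF added FGF10 at 100 µg per ml, and +NFD added both. The labels give the DBZ dose as 10 µM, whereas the methods text writes the same number in another unit. Media with Jagged1 were not analysed here. Each medium was represented by 1 library, so no replicate check of a difference was possible.

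Cells of barrier epithelia release cytokines and chemokines that alert the immune system. The IL-1 family includes agonists (IL-1α, IL-1β, IL-18 and IL-33) and a receptor antagonist, encoded by Il1rn, that occupies the IL-1 receptor without signalling. IL-33 and TSLP are known as epithelial alarmins of type 2 immunity. CXCL1, CXCL2 and CXCL5 carry the Glu-Leu-Arg (ELR) motif and attract neutrophils through CXCR2, and CCL20 attracts cells that bear CCR6. DBZ blocks the γ-secretase cleavage that activates Notch receptors, and FGF10 is a mesenchymal growth factor that signals to epithelium.

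Expression was given in FPKM, fragment density normalised by transcript length and by sequencing depth, which allows levels to be compared between genes. Total read numbers were not stated. From the smallest steps between low values, +ND had about 0.758 times the depth of +N, while +NF and +NFD had 1.01 and 1.02 times. Between 12529 and 12959 genes reached 1 FPKM in a library. The transcript BC037156 took between 5.17% and 15.6% of the summed FPKM of a library. As a check of DBZ, the Notch target Nrarp fell with DBZ (18.2 FPKM in +N and 9.12 in +NF, against 2.80 in +ND and 2.60 in +NFD, limma adjusted p = 0.00980). Hes1, another Notch target, had 157, 74.6, 109 and 80.1 FPKM in +N, +ND, +NF and +NFD, and did not pass (limma adjusted p = 0.165). Notch3 had 23.4, 7.90, 19.7 and 11.3 FPKM in the same media, and did not pass either (limma adjusted p = 0.0598). The other Notch targets listed stayed under 1 FPKM in every library.

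The 10 genes differed widely in level, and the chemokines that attract neutrophils were among the most abundant transcripts of the organoids. In +N, Cxcl5 reached 1955 FPKM (rank 32 of all gene symbols), Cxcl1 756 FPKM (rank 136), Il1rn 213 FPKM (rank 406) and Cxcl2 141 FPKM (rank 611). Il33 followed with 94.3 FPKM and Il1a with 71.6 FPKM. Ccl20 had 18.5 FPKM in +N, and Tslp and Il18 lay near the lower end with 2.37 and 2.14 FPKM. Il1b was the exception, with 0.207 FPKM or about 8 fragments. In +ND the order differed at the top, where Cxcl5 (361 FPKM), Il1rn (322 FPKM) and Cxcl1 (320 FPKM) were close to each other, and Tslp (67.4 FPKM) stood beside Il1a (68.4 FPKM).

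**Figure D1:**
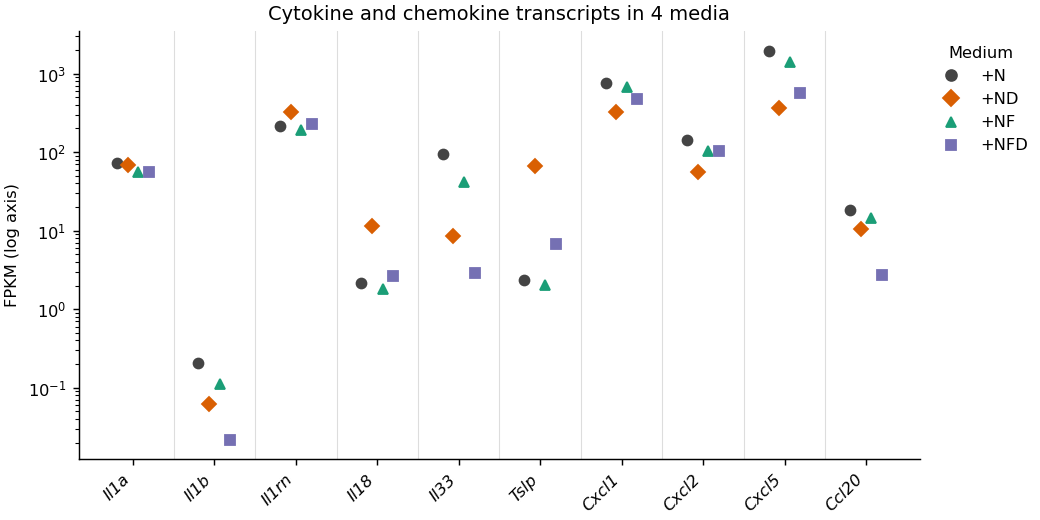
FPKM of the 10 genes on a log axis, with 1 point for each of the 4 libraries and no error bars, since each medium has 1 library. Tslp and Il18 have their highest point in +ND, Il33 and Ccl20 their lowest in +NFD, and Cxcl1, Cxcl2 and Cxcl5 their lowest in +ND.

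Ratios between libraries are on the log2 scale after adding a pseudocount of 1 FPKM, which shrinks the ratios of weakly expressed genes, and a gene was counted when it had at least 1 FPKM in the higher library. By this filter 9 of the 10 genes were counted in every comparison, and Il1b in none. In +ND relative to +N, 2 of the 9 were at least 2-fold higher (Tslp and Il18), against 5.88% of all 13173 genes counted, and 4 were at least 2-fold lower (Il33, Cxcl5, Cxcl2 and Cxcl1), against 5.29%. With FGF10 present, in +NFD relative to +NF, 1 was at least 2-fold higher (Tslp), against 3.72% of genes, and 3 were at least 2-fold lower (Il33, Ccl20 and Cxcl5), against 2.69%. The median log2 ratio of the 9 genes was −0.75 without FGF10 and −0.01 with it, and that of all genes counted was 0.10 and 0.05. These pairs of libraries share none, and the 9 genes had the same direction in both of them: 3 were higher with DBZ (Tslp, Il18 and Il1rn) and 6 were lower. Of 12774 genes counted in both pairs, 4895 were higher in both, 2939 were lower in both and 4940 had opposite directions. Among the 6, the ratios of Il1a in both pairs and of Cxcl2 in +NFD relative to +NF lay within counting error of 0. At least 2-fold in both pairs were Tslp, higher, against 1.84% of genes, and Il33 and Cxcl5, lower, against 2.13%.

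Addition of FGF10 without DBZ left most of these genes under the 2-fold limit. In +NF relative to +N, 0 of 9 were at least 2-fold higher, against 2.76% of genes, and only Il33 was at least 2-fold lower, against 2.44%. All 9 lay below 0, with a median of −0.33 against 0.12 over all genes, but Tslp and Il18 were within counting error of 0. In the presence of DBZ, in +NFD relative to +ND, 0 of 9 were at least 2-fold higher, against 3.39%, and 4 were at least 2-fold lower (Tslp, Il18, Ccl20 and Il33), against 3.11%, with a median of −0.49 against 0.09. Over these pairs, 6 of the 9 were lower in both, against 14.7% of 12635 genes. The other 3 (Cxcl1, Cxcl2 and Cxcl5) had opposite directions, against 44.8%. At least 2-fold lower in both of these pairs was Il33 alone, against 0.926% of genes, and 0 were at least 2-fold higher in both, against 0.863%. With both additions, in +NFD relative to +N, Tslp was at least 2-fold higher, against 5.85%, and Il33, Ccl20 and Cxcl5 were at least 2-fold lower, against 4.03%, with a median of −0.45 against 0.18.

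**Figure D2:**
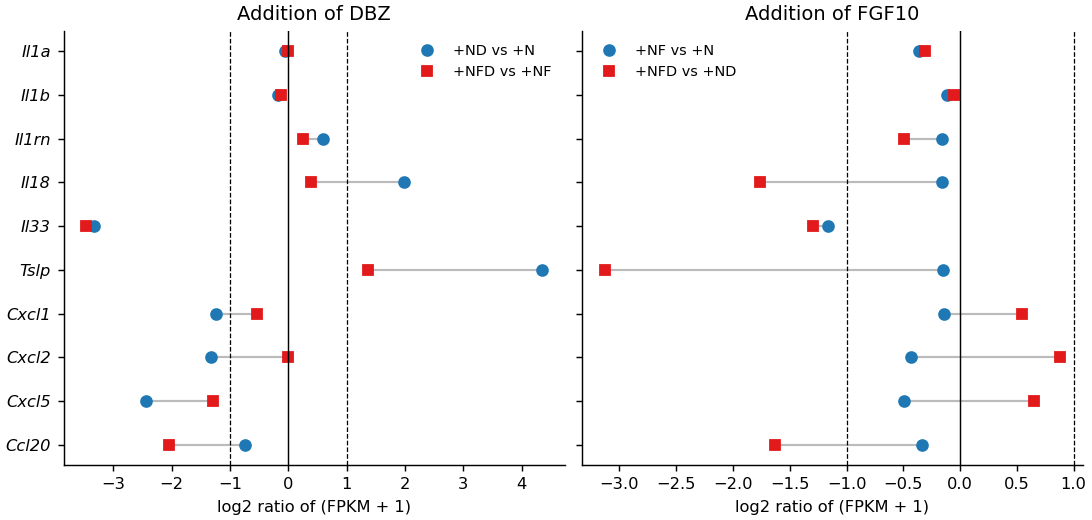
Log2 ratios of FPKM + 1 for the 10 genes, for addition of DBZ (left, +ND vs +N as circles and +NFD vs +NF as squares) and of FGF10 (right, +NF vs +N as circles and +NFD vs +ND as squares); dashed lines mark 2-fold and a grey line joins the values of a gene. For Il33 the symbols of a panel nearly coincide, for Tslp they lie apart by 2.98, and for Cxcl1, Cxcl2 and Cxcl5 the FGF10 ratios lie on opposite sides of 0.

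The 4 media form a 2 by 2 design, and DBZ and FGF10 were fitted together with limma over 13748 genes. This fit has 1 residual degree of freedom and takes the departure from additivity of single libraries as its error, so its p-values do not measure the spread between cultures. For DBZ, 3 of the 9 genes tested passed an adjusted p of 0.05 (Il33, Cxcl5 and Tslp), against 3.8% of all genes. Tslp was the gene called higher, against 1.71% of all genes, and the other two were called lower, against 2.09%. For FGF10, limma called 0 of the 9 and 0.866% of all genes (0.327% higher and 0.538% lower), while 4 of the 9 and 1465 of all 13748 genes had an unadjusted p under 0.05. For DBZ, 6 of the 9 and 1995 of all genes did so. Without the filter on low values limma called 0 of all genes for DBZ, 2319 having an unadjusted p under 0.05, and the adjusted p was 0.128 for Il33, 0.375 for Cxcl5 and 0.458 for Tslp.

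Il33 was lower with DBZ to nearly the same degree in both FGF10 states. It had 94.3 FPKM in +N and 41.4 in +NF, against 8.45 in +ND and 2.85 in +NFD, or about 6799, 3003, 461 and 210 fragments in this order. Both libraries with DBZ lay below both libraries without it, and within each Notch state the library with FGF10 was the lower of the pair. The gene lies at chr19:29925114-29960718 on the plus strand of GRCm38. The FPKM was 11.2-fold lower in +ND than in +N, with a 95% interval of the log2 ratio from −3.62 to −3.35, and 14.5-fold lower in +NFD than in +NF, from −4.07 to −3.66. Such intervals come from the approximate fragment numbers and cover counting error only. In the limma fit Il33 fell by 3.40 ± 0.208 (SE) on the log2 scale with DBZ (adjusted p = 0.000174). FGF10 gave Il33 log2 ratios of −1.17 without DBZ and −1.29 with it, and a limma change of −1.23 ± 0.208 with an adjusted p of 0.0539. This value was below 0.05 with a pseudocount of 0.1 (0.0371), a filter at 5 FPKM (0.0159) or ratios centred on their median (0.0195). It stayed above 0.05 with the highest entry per symbol (0.0560), upper-quartile scaling (0.0611), a single prior variance (0.0918) and no filter (0.632). In bulk RNA, fewer cells that express a gene and less RNA of it per cell cannot be told apart.

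Tslp, which encodes thymic stromal lymphopoietin, was high in 1 medium only. It had 2.37 FPKM in +N and 2.03 in +NF, against 67.4 in +ND and 6.81 in +NFD. The gene lies on chromosome 18. The levels in +N and +NF differed by less than their counting error (interval of the log2 ratio −0.71 to 0.28), and both other libraries were higher. The increase with DBZ was 28.5-fold without FGF10 (interval 4.50 to 5.18 on the log2 scale) and 3.34-fold with it (1.33 to 2.15). On the log2(FPKM + 1) scale the ratios were 4.34 and 1.36. Tslp rose by 2.85 ± 0.594 with DBZ in limma (adjusted p = 0.0477), and the call was lost with upper-quartile scaling (0.0728) and with a single prior variance (0.0761). Relative to +ND, Tslp in +NFD was 9.90-fold lower.

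Il1a and Il1b, which encode IL-1α and IL-1β, differed widely in level. Il1a had 71.6 FPKM in +N and 55.6 in +NF, against 68.4 in +ND and 55.1 in +NFD. Its level varied by 1.30-fold over the 4 media, the smallest range of the family. The libraries of each pair that differed by DBZ were within counting error of each other (intervals −0.14 to 0.00 without FGF10 and −0.08 to 0.06 with it), and both libraries with FGF10 were lower than both without. Its limma change was −0.04 ± 0.202 for DBZ (adjusted p = 0.960) and −0.33 ± 0.202 for FGF10 (adjusted p = 0.657). Il1b had 0.207 FPKM in +N and 0.111 in +NF, against 0.0618 in +ND and 0.0218 in +NFD, which corresponds to about 7.9, 4.3, 1.8 and 0.85 fragments in this order. In +ND and +NFD this is under the level of 3 fragments, 0.103 and 0.0765 FPKM. The interval of its log2 ratio of +ND to +N ran from −4.87 to 0.73, so that no difference could be detected there at this depth, and that of +NFD to +N ran from −8.50 to −0.13. Both genes lie on the minus strand of chromosome 2, at chr2:129299610-129309972 for Il1a and chr2:129364570-129371139 for Il1b on GRCm38, and each overlaps a gene on the other strand that had at most 0.627 FPKM in any library.

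Il1rn, the IL-1 receptor antagonist gene, was more abundant than Il1a in every medium. It had 213 FPKM in +N and 190 in +NF, against 322 in +ND and 228 in +NFD, so that the highest library exceeded the lowest by 1.69-fold. The gene lies at chr2:24336853-24351494 on the plus strand. The ratio of Il1rn to Il1a FPKM was 2.98 in +N and 3.43 in +NF, against 4.70 in +ND and 4.14 in +NFD. Both ratios with DBZ lay above both without it. Il1rn had log2 ratios for DBZ of 0.59 without FGF10 and 0.26 with it, which did not pass the limma test (0.43 ± 0.201, adjusted p = 0.398). Between +NFD and +N the log2 ratio of Il1rn was 0.10, and its sign changed with upper-quartile scaling (−0.08) and with centring on the median (−0.08).

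Il18 encodes a cytokine that is stored as a precursor and cut by caspase-1. It had 2.14 FPKM in +N and 1.82 in +NF, against 11.5 in +ND and 2.68 in +NFD, from about 46 to 218 fragments. The library of +ND stood apart, and +N did not differ beyond counting error from +NF (interval −0.84 to 0.35) or from +NFD (−0.21 to 0.87), while +NFD lay just above +NF (0.01 to 1.14). The gene lies at chr9:50575273-50581837 on the plus strand. The log2 ratio for DBZ was 1.99 without FGF10 and 0.38 with it. As with Tslp, FGF10 in the presence of DBZ went with a lower level, by −1.76 for Il18 and −3.13 for Tslp. The limma change of Il18 with DBZ was 1.19 ± 0.380 (adjusted p = 0.186).

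The remaining ligand genes of the IL-1 family, which encode the IL-36 cytokines, their receptor antagonist and IL-38, stand next to Il1rn on chromosome 2. Of the 9 ligand genes of the family tested with limma, 4 rose with DBZ (Il1f5, Il1f6, Il1f8 and Il1f9), against 1.71% of all genes. Only 1, Il33, fell with DBZ, against 2.09%. With FGF10, 2 fell (Il1f8 and Il1f9), against 0.538%. Il1f6, which encodes IL-36α, had 2.27 FPKM in +N and 0.534 in +NF, against 62.6 in +ND and 20.0 in +NFD. Il1f5, the gene of the IL-36 receptor antagonist, had 3.90, 107, 2.26 and 42.4 FPKM in +N, +ND, +NF and +NFD. In these genes both libraries with DBZ were above both without it. Il1f9, the IL-36γ gene, had 117 FPKM in +N and 91.0 in +NFD, with 249 in +ND and 32.8 in +NF. The summed FPKM of the 10 ligand genes was 524 in +N and 329 in +NF, against 877 in +ND and 462 in +NFD. Markers of suprabasal and cornified keratinocytes also differed between the media. Their 16 genes summed to 1736 FPKM in +N and 287 in +NF, against 5432 in +ND and 1924 in +NFD. In limma 9 of the 16 rose with DBZ, against 1.71% of all genes. The list was not uniform, and the keratin genes Krt10, Krt13 and Krt4 were at least 2-fold lower in +ND than in +N (94.1 to 32.8, 435 to 129 and 69.0 to 9.98 FPKM). The part of these cells in the levels of Tslp, Il18 and the IL-36 genes was not tested.

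**Figure D3:**
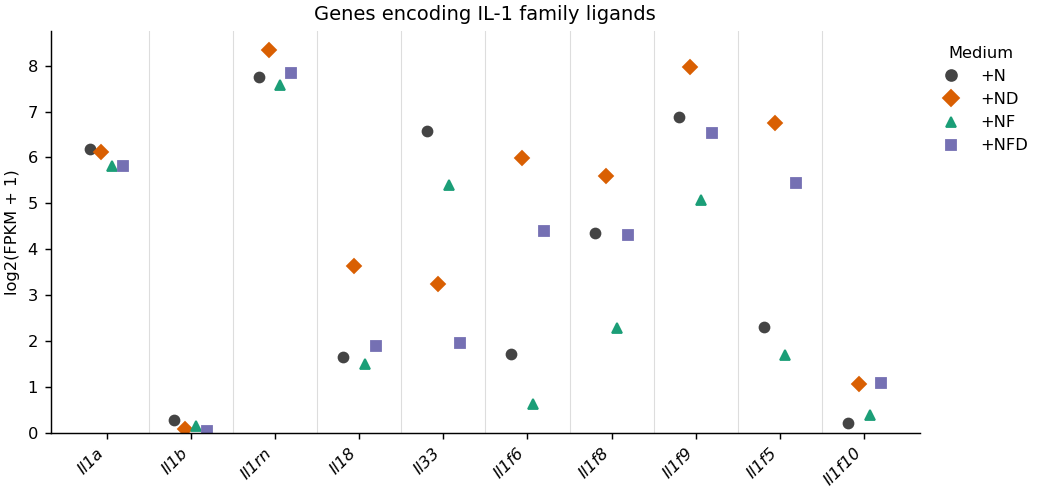
Log2(FPKM + 1) of the 10 ligand genes of the IL-1 family, 1 point per library. Il1f6 and Il1f5 (IL-36α and the IL-36 receptor antagonist) have their 2 highest points in the media with DBZ and Il33 its 2 lowest, while the points of Il1a nearly coincide.

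Cxcl5, Cxcl1 and Cxcl2 encode chemokines that recruit neutrophils, and they were lowest in +ND. Cxcl5 had 1955 FPKM in +N and 1390 in +NF, against 361 in +ND and 567 in +NFD. Both libraries with DBZ lay below both without it, by 5.41-fold without FGF10 and 2.45-fold with FGF10. Cxcl5 fell by 1.86 ± 0.277 on the log2 scale with DBZ in limma (adjusted p = 0.0127). Cxcl1 had 756 FPKM in +N and 683 in +NF, against 320 in +ND and 468 in +NFD, with the media ranked as for Cxcl5. Its log2 ratios for DBZ were −1.24 and −0.54, and its limma change of −0.89 ± 0.225 had an adjusted p of 0.0936. Cxcl2 had 141 FPKM in +N and 104 in +NF, against 55.7 in +ND and 103 in +NFD. In the presence of FGF10 the libraries with and without DBZ were within counting error for Cxcl2 (interval of the log2 ratio −0.06 to 0.04), whereas without FGF10 its log2 ratio was −1.32. The limma change of Cxcl2 was −0.67 ± 0.315 (adjusted p = 0.396). For these 3 genes FGF10 had log2 ratios below 0 without DBZ (−0.14 for Cxcl1, −0.44 for Cxcl2 and −0.49 for Cxcl5) and above 0 with it (0.55, 0.88 and 0.65). The difference between these ratios was not tested.

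The 3 genes belong to a block of CXC chemokine genes on chromosome 5 that spans 146.6 kb. From Cxcl5 at chr5:90759360-90761624 the block runs through Ppbp, Pf4, Cxcl3 and Cxcl15 to Cxcl1 at chr5:90891241-90893115 and Cxcl2 at chr5:90903871-90905938, all on the plus strand of GRCm38. Of its 7 genes, all but Cxcl15 were expressed. The 4 genes of the block that fell with DBZ in limma were Cxcl5, Cxcl3, Ppbp and Pf4, against 2.09% of all genes called lower. Ppbp, which encodes CXCL7, was the most abundant, with 3556 FPKM in +N and 2617 in +NF, against 717 in +ND and 557 in +NFD. Cxcl3 had 996, 142, 726 and 307 FPKM in +N, +ND, +NF and +NFD. The 5 ELR chemokine genes Cxcl1, Cxcl2, Cxcl3, Cxcl5 and Ppbp summed to 7404 FPKM in +N and 5521 in +NF, against 1596 in +ND and 2003 in +NFD. As a share of the +N level this was 21.6% in +ND, 74.6% in +NF and 27.0% in +NFD. Neighbouring genes of this family have similar sequences, and reads of one could be counted for another.

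**Figure D4:**
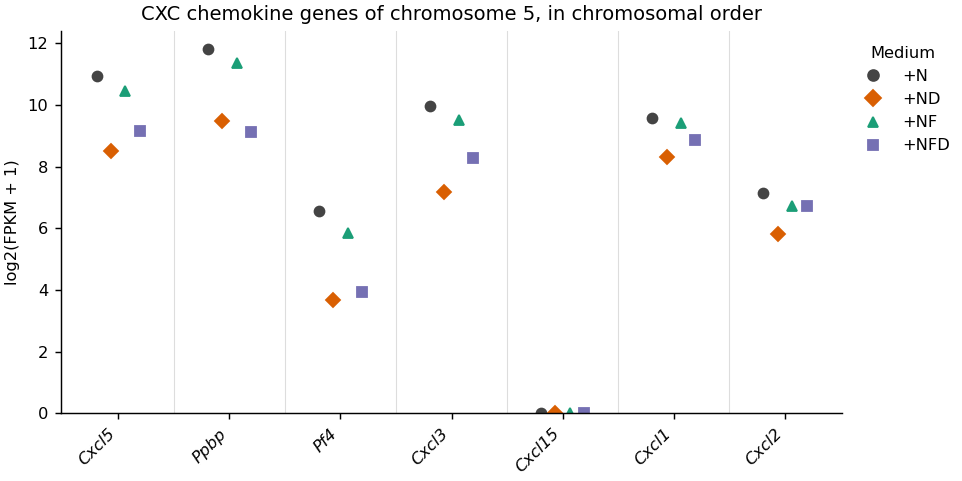
Log2(FPKM + 1) of the 7 CXC chemokine genes of chromosome 5, in their order along the chromosome, 1 point per library. In Cxcl5, Cxcl3 and Cxcl1 the order is +N, +NF, +NFD and +ND from high to low, in Ppbp and Pf4 both media with DBZ are close together, and Cxcl15 lies at or near 0.

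The sequence before the start of some of these chemokine genes and of Ccl20 is shown as a description. RefSeq on GRCm38.p6 gave a promoter window for 8 of the 10 genes, not for Cxcl5 and Tslp, and the 250 bases before the annotated start were searched on both strands. The NF-κB consensus was found in the windows of Cxcl1, Cxcl2 and Ccl20, and in 7.25% of all 32851 windows. Among their neighbours it was found before Cxcl3 and not before Ppbp or Pf4. The stretches are read 5′ to 3′ on the plus strand, at chr5:90891125-90891240 for Cxcl1, chr5:90903779-90903870 for Cxcl2, chr5:90785981-90786100 for the neighbour Cxcl3 and chr1:83116646-83116765 for Ccl20. Capitals mark the match, on both strands where these overlap. In Ccl20 the match lies on the minus strand only, so the capitals there are its reverse complement.
Cxcl1: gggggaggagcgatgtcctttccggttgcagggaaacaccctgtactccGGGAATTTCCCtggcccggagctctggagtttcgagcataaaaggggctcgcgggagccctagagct
Cxcl2: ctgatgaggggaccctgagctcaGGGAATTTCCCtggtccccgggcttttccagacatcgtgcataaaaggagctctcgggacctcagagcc
Cxcl3: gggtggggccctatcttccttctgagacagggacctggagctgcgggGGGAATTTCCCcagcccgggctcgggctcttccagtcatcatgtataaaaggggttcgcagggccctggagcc
Ccl20: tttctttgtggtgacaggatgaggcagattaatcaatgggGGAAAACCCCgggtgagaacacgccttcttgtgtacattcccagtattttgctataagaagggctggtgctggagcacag
The match began 71 bases before the RefSeq start in Cxcl1, 97 in Cxcl2, 73 in Cxcl3 and 80 in Ccl20. The last 4 bases before this start are not printed for Cxcl1, nor the last 28 for Cxcl2. The stretches of Cxcl3 and Ccl20 run up to it. In Cxcl1, Cxcl2 and Cxcl3 it held the same letters, GGGAATTTCC, which overlap with a match on the other strand and occur in 28 of all windows (0.0852%). This run of letters was chosen after the windows had been seen, and the 3 genes are paralogs. The AP-1 letters TGANTCA, present in 6.75% of windows, occurred before Il1a, Il1rn and Ppbp, and the letters GTGGGAA, bound by the Notch effector RBPJ and present in 5.42% of windows, before Il1rn. A match describes the letters and not the occupation of a site.

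Ccl20 differed from the CXC members in that it was lowest with both additions. It had 18.5 FPKM in +N and 14.5 in +NF, against 10.6 in +ND and 2.74 in +NFD, or about 741, 584, 321 and 112 fragments in this order. In each of the 5 comparisons of media its counting interval excluded a ratio of 1, and +NFD stood furthest apart, 6.73-fold below +N. Its log2 ratio for DBZ was −0.75 without FGF10 and −2.05 with it. In limma the change with DBZ was −1.40 ± 0.320 (adjusted p = 0.0674), which fell below 0.05 with a filter at 5 FPKM (0.0276) or with centring on the median (0.0230). The adjusted p stayed above 0.05 with a pseudocount of 0.1 (0.0503), upper-quartile scaling (0.0678) and the highest entry per symbol (0.0697). So it did with a single prior variance (0.0987) and no filter (0.455). For FGF10 the change was −0.98 ± 0.320 (adjusted p = 0.313). The gene lies at chr1:83116766-83119167 on the plus strand. Of the 11 CC chemokine genes tested, 3 fell with DBZ in limma (Ccl6, Ccl7 and Ccl12) and 0 rose, against 2.09% and 1.71% of all genes. Ccl6 had 69.3 FPKM in +N and 53.2 in +NF, against 8.35 in +ND and 5.38 in +NFD.

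Transcripts of receptors for these ligands were uneven. Of the 16 genes of receptors and signalling of the IL-1 family, limma called 1 higher (Il1rl1) and 1 lower (Il18r1) with DBZ. Over all genes these shares were 1.71% and 2.09%. Il1rl1, which encodes the IL-33 receptor ST2, had 3.56 FPKM in +N and 3.94 in +NF, against 9.05 in +ND and 15.4 in +NFD, and was higher in both media where Il33 was low (change 1.44 ± 0.242, limma adjusted p = 0.0209). Il18r1, a subunit of the IL-18 receptor, had 2.53, 0.485, 22.9 and 2.27 FPKM in +N, +ND, +NF and +NFD, with its highest level in +NF. Its partner Il18rap had 0.849, 0.345, 6.97 and 0.689 FPKM in the same media, also highest in +NF. Il1r1, the signalling IL-1 receptor, stayed between 2.98 and 3.60 FPKM. The decoy receptor Il1r2 was above 1 FPKM in +ND only (1.64 FPKM). Crlf2, the TSLP-binding chain, had between 5.06 and 7.62 FPKM, whereas its partner Il7r was at or near 0. The chemokine receptor genes Cxcr1 and Ccr6 were listed at 0 in all 4 libraries, and Cxcr2 did not exceed 0.398 FPKM.

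**Figure D5:**
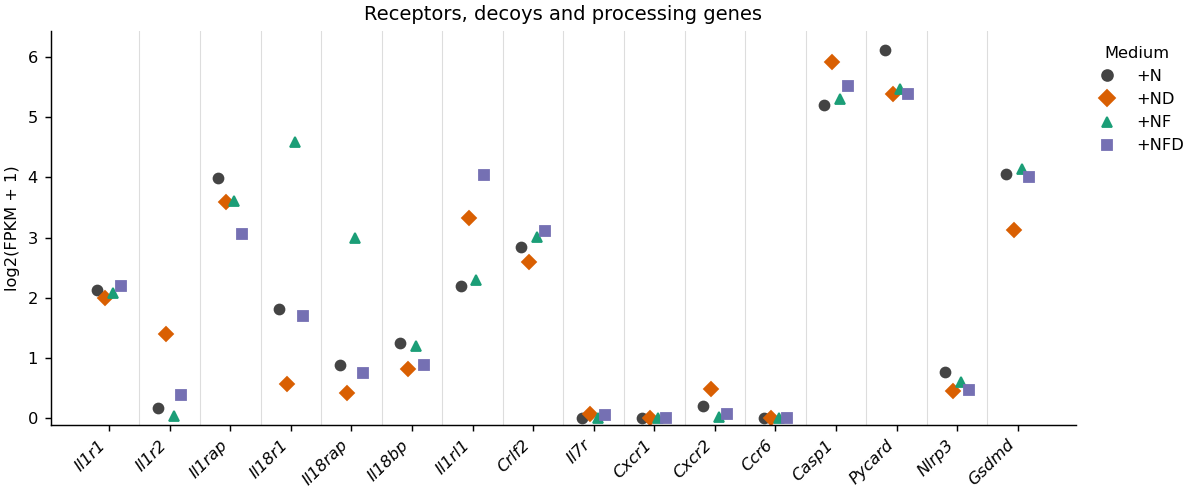
Log2(FPKM + 1) of receptors, decoys and processing genes of the 10 cytokines and chemokines, 1 point per library. Il18r1 and Il18rap have a separate high point in +NF, Il1rl1 is highest in the media with DBZ, and Cxcr1, Ccr6 and Il7r lie at or near 0.

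Genes for the processing of IL-1 family cytokines were expressed in all media. Casp1, the protease that cuts the precursors of IL-1β and IL-18, had 35.9 FPKM in +N and 38.2 in +NF, against 59.5 in +ND and 44.5 in +NFD, highest where Il18 was highest. The inflammasome adaptor Pycard had between 40.4 and 68.3 FPKM, and the sensor Nlrp3 at most 0.712 FPKM. Gsdmd, which encodes the pore-forming gasdermin D, had 7.72 FPKM in +ND and between 15.0 and 16.6 FPKM in the other libraries. Of 9 processing genes tested, limma called 1 for DBZ, Nlrp10, which fell, against 2.09% of all genes called lower.

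Among 15 other cytokine genes of epithelia, 2 fell with DBZ in limma (Csf2 and Csf3, the genes of GM-CSF and G-CSF) and 0 rose. Of all genes, 2.09% were called lower and 1.71% higher. Csf3 had 28.2 FPKM in +N and 29.4 in +NF, against 1.55 in +ND and 3.08 in +NFD, which separated the media by DBZ as Cxcl5 did. Csf2 had 6.25 FPKM in +N and 2.80 in +NF, against 0.297 in +ND and 0.133 in +NFD. Of 17 feedback and target genes of NF-κB, the pathway that induces many cytokine genes, limma called 1 for DBZ. This was Traf1, which fell, against 2.09% of all genes called lower. The median log2 ratio of the 17 genes was −0.36 in +ND relative to +N and 0.01 in +NFD relative to +NF. Nfkbia, which encodes the inhibitor IκBα, had 184 FPKM in +N and 113 in +NF, against 168 in +ND and 134 in +NFD.

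The labels name the cells as primary epithelial cells, and the 8 epithelial markers were at 5 FPKM or more in every library. Their sum was 21265 FPKM in +N and 16557 in +NF, against 12479 in +ND and 13863 in +NFD. In +ND relative to +N, 3 of the 8 were at least 2-fold lower (Krt14, Cdh1 and Epcam), against 5.29% of all genes counted. Epcam fell with DBZ in limma (−1.14 ± 0.198, adjusted p = 0.0232). Transcripts of other cell types were present as well. All 14 macrophage markers were above 0 in every library, and summed to 826 FPKM in +N and 598 in +NF, against 664 in +ND and 541 in +NFD. Lyz2 alone made up 528 FPKM of the sum in +N. Of the 13 counted in both pairs of media that differ by DBZ, 4 were higher with DBZ in both, 3 lower in both and 6 opposite. The shares over all genes were 38.3%, 23.0% and 38.7%. Aif1 was the only macrophage marker called by limma, against 3.8% of all genes for DBZ. It fell with DBZ, from 48.7 to 10.9 FPKM without FGF10. By contrast, Cd68 had 23.5 FPKM in +N and 16.2 in +NF, against 36.2 in +ND and 32.9 in +NFD. Of 8 markers of dendritic and Langerhans cells, H2-Ab1 and Cd74 reached 1 FPKM, and both were at least 2-fold lower in +ND than in +N (85.3 to 35.9 and 5.61 to 0.441 FPKM), with 50.4 and 1.31 FPKM in +NF and 39.1 and 0.867 FPKM in +NFD. Neither passed the limma test for DBZ (adjusted p = 0.198 and 0.244). Of 10 neutrophil markers, Mpo, Elane, Ngp, Camp and Retnlg were listed at 0 in all libraries. Ltf, which secretory epithelia also express, was the only one above 1 FPKM, with 246 FPKM in +N and 199 in +NF, against 5.45 in +ND and 8.90 in +NFD. The T cell receptor complex genes Cd3d, Cd3e and Cd3g were at 0 throughout, as were Cd2 and Cd8a. The T cell receptor gene Trac had 1.48 FPKM in +N and 1.06 in +NF, against 0.664 in +ND and 0.558 in +NFD. Lck had between 0.636 and 0.983 FPKM, and Cd4 at most 0.306 FPKM. Endothelial markers summed to at most 0.517 FPKM. All 10 fibroblast markers were higher in +NFD than in +N, and their sum was 592 FPKM in +NFD against 161 to 256 FPKM in the other libraries. The part of macrophages, dendritic cells, fibroblasts and the epithelial markers in the levels of the 10 genes was not tested.

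Profiles over the 4 libraries were compared by the Euclidean distance of log2(FPKM + 1) after centring each gene on its own mean, among 9851 genes with at least 5 FPKM in a library. Closest to Cxcl5 were Wnt11 (distance 0.08), Krt19 (0.09) and Rom1 (0.25). Krt19, a keratin of simple epithelia, had 10.6 FPKM in +N and 6.95 in +NF, against 1.03 in +ND and 2.09 in +NFD. Rom1 had 9.02 FPKM in +N and 0.863 in +ND. At such low levels the pseudocount shrinks the ratios. Without it, Krt19 and Rom1 fell further from +N to +ND than Cxcl5, which fell 5.41-fold. Closest to Cxcl1 were Plin2, Tmem139 and Scin, and to Cxcl2 Tcta, Mxd4 and Bhlhe41. Nearest to Il33 were Mgll (0.61), Ly6d (0.62) and Oasl2 (0.62). Ereg, the epiregulin gene, was closest to Il18 (0.18), with 8.67 FPKM in +ND and between 1.55 and 2.26 FPKM in the other libraries. For Tslp the nearest were Fam213a (0.50), Ces1h (0.71) and Wfdc12 (0.83), and for Ccl20 Has2 (0.40), Ighm (0.53) and Ccl7 (0.64). Il1a lay closest to Sc5d, Ier5 and H3f3c, and Il1rn to Bet1, Stac and Homer3, all within 0.06. With 4 libraries such likeness is a description of these libraries.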

How the data were processed

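RNA of DEOs was measured by RNA-seq in 4 media, with 1 library per medium. The authors prepared TruSeq libraries, sequenced them on an Illumina HiSeq instrument, used FastQC 0.11.9 for read quality and Trim Galore 0.6.5 for trimming, and aligned reads to GRCm38 with TopHat 2.1.1. The values deposited are FPKM, which the authors estimated with Cufflinks. The annotation release, strand setting and options are not given in the sources used here, so genes that overlap on opposite strands and close paralogs can share fragments. The 2 samples with Jagged1 were not analysed here.

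From these values, the entries of 123 symbols with several entries were summed. Ratios used a pseudocount of 1 FPKM, genes with at least 1 FPKM in the higher library and a 2-fold limit. The additive fit of DBZ and FGF10 used limma 3.58.1 (trend, prior degrees of freedom 6.23) with Benjamini-Hochberg adjustment over 13748 genes. Depth was estimated from the smallest steps of FPKM times length in 8367 genes with a single transcript of at least 1000 nt of GENCODE M21, in which 46994 identifiers were found. The value of 1 fragment thus found is approximate, and the 95% exact binomial intervals made from it cover counting error only.

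The members and the 19 gene lists were chosen with earlier results of these data known, and the lists were written from general knowledge. Named genes are the members, their receptors, decoys and processing genes, from each list those with the 2 highest and 2 lowest mean ratios among genes with at least 5 FPKM, and the 3 genes nearest to each member. Other genes of the lists were named after their values were seen. Symbols of the IL-36 genes were matched through RefSeq synonyms. The alternatives were upper-quartile scaling, centring on the median, the highest entry per symbol, a single prior variance, a filter at 5 FPKM or none, and a pseudocount of 0.1 or none. R 4.3.3 and Python 3.11.15 with pandas 2.3.3, numpy 2.4.6, scipy 1.17.1 and matplotlib 3.10.9 were used.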

Additional observations from a re-analysis of the deposited data

Results flagged for a closer look

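The ratio for FGF10 had opposite signs without and with DBZ in Cxcl1, Cxcl2 and Cxcl5. On the log2(FPKM + 1) scale, Cxcl1 gave −0.14 in +NF relative to +N and 0.55 in +NFD relative to +ND. Cxcl2 gave −0.44 and 0.88, and Cxcl5 −0.49 and 0.65. Each value compares 1 library with 1 library, and the difference between the ratios was not tested. The counting intervals of these ratios did not include 0, from −0.17 to −0.12 and 0.52 to 0.58 for Cxcl1, −0.49 to −0.39 and 0.82 to 0.96 for Cxcl2, and −0.51 to −0.48 and 0.62 to 0.68 for Cxcl5. All 6 ratios were under 2-fold. Their signs were the same under every alternative run.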

How the results depend on the processing

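The numbers of the 10 genes at least 2-fold higher or lower in each of the 5 comparisons stayed within 1.5 times under all 7 alternatives for them, and no called value changed its direction. For DBZ, 3 genes were called by limma, and 4 with a filter at 5 FPKM or with median centring. With upper-quartile scaling or a single prior variance 2 were called. Without a filter 0 were called, and limma called 0 of 22998 genes (2319 had an unadjusted p under 0.05). For FGF10, 0 genes were called, and 1, Il33, with a filter at 5 FPKM, with median centring and with a pseudocount of 0.1. Over all alternatives the adjusted p for DBZ ranged from 8.79e-06 to 0.128 for Il33, from 0.00263 to 0.375 for Cxcl5, from 0.0150 to 0.458 for Tslp and from 0.0230 to 0.455 for Ccl20, and that of Il33 for FGF10 from 0.0159 to 0.632. The sign of the limma change of Cxcl5 with FGF10, 0.08, changed with median centring (−0.03) and upper-quartile scaling (−0.02), and it was not called. Over all genes limma called 235 higher and 288 lower for DBZ. These became 239 and 297 of 10467 genes with the filter at 5 FPKM, and 272 and 389 with median centring. They were 192 and 264 with upper-quartile scaling, 209 and 251 with a single prior variance, and 295 and 330 with the pseudocount of 0.1. For FGF10 limma called 119 of all genes, of which 45 were higher. It called 75 higher and 124 lower with the filter at 5 FPKM, 69 and 147 with median centring, 85 and 116 with the pseudocount of 0.1, 24 and 51 with upper-quartile scaling, 26 and 32 with a single prior variance, and 0 without a filter (1696 with an unadjusted p under 0.05). Centring removes a median log2 ratio of 0.10 in +ND and 0.12 in +NF relative to +N. Of all genes, 774 were at least 2-fold higher and 697 lower in +ND relative to +N, and 615 and 842 after centring. In +NF relative to +N the numbers went from 361 higher and 319 lower to 248 and 412, in +NFD relative to +N from 782 and 538 to 540 and 714, and in +NFD relative to +ND from 450 and 414 to 345 and 506. With a pseudocount of 0.1 they were 1212 and 955, 712 and 480, 1271 and 743, and 818 and 576. The causes were not tested. Leaving out a library was not run, since 3 libraries leave the fit no residual degree of freedom. No paired analysis was possible because each medium has 1 library and the groups share fewer than 2 replicate numbers. Depth limits Il1b, at about 8 fragments or fewer in every library.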
